A study of Mus musculus with 9 samples.

Results

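The comparison described here is that of dimethyl fumarate (DMF) with its solvent in murine Tc17 cells, that is, CD8+ T cells turned towards IL-17 production in vitro. It rests on 6 of the 9 RNA-Seq libraries of the study, 3 with solvent (Ctrl) and 3 with DMF, chosen by their labels and paired by the replicate number in their titles. The libraries numbered 1 were prepared in batch 1, and those numbered 2 and 3 in batch 2. Sorted naive CD8+ T cells from lymph node and spleen of C57BL/6 mice were primed on anti-CD3 with anti-CD28, IL-2 at 50 U/ml, TGF-β, IL-6 and an antibody against IFN-γ for 2 days. All cultures of all groups received this mixture, so that no group without polarising cytokines entered the comparison. Ctrl cultures held 0.2% DMSO alone, and DMF cultures had 20 µM DMF added. The remaining 3 libraries held 20 µM DMF and 50 µM reduced glutathione (GSH). They entered the mean that selects genes, the check of the pairing and the estimate of the spread. The labels do not say whether the replicates came from separate animals. The paper's reporting summary gives at least 3 independent biological replicates for its experiments, without saying whether these were separate animals. The p-values measure the spread between these samples, and how much of it is technical is not known. Of the 41388 genes in the table, 11599 were tested, those whose normalized counts averaged at least 10 over the 9 libraries. A normalized count is the number of reads of a gene divided by a size factor of its library.

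DMF is an ester of fumarate that reacts with thiols, among them the cysteine of glutathione and those of KEAP1, the protein that keeps the transcription factor NRF2 in check. NRF2 drives genes of glutathione and thioredoxin metabolism through the antioxidant response element. ATF4, the transcription factor of the integrated stress response, drives amino acid transport and synthesis when amino acids or the redox state are disturbed. T cells that leave the naive state lose lymph node homing receptors and the transcription factors of quiescence, and activated T cells build ribosomes, nucleotides and mitochondria before they divide. Bulk RNA gives the average over a culture, and fewer cells of a kind cannot be told apart from less RNA per cell.

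The libraries held between 7671772 (Ctrl replicate 3) and 12669991 (DMF replicate 2) reads on genes, and a normalized count of 10 stood for as few as 7.03 reads in Ctrl replicate 3. The 12 CD8 T cell markers summed to between 54565 and 61649 normalized counts in Ctrl and between 53380 and 59727 with DMF, and 0 of them were called. At p adj under 0.01 alone 6 of the 12 were lower and 1 higher (15.6% and 17.6% of all genes were), and 9 had an unadjusted p under 0.05, as had 51.8% of all genes. Cd4 was at most 3.12 and Cd40lg at most 5.20 normalized counts in these 6 libraries, and the rise of the CD4 T cell markers, from 638–964 to 1125–2528.5 in sum, was nearly all that of Foxp3. Zbtb7b, the remaining marker, was at 54.0, 72.5 and 48.3 in Ctrl and 68.8, 86.5 and 58.1 with DMF and was not called. Of the myeloid markers, Lyz2 was 119 and Csf1r 58.3 normalized counts in Ctrl replicate 3, and at most 10.6 and 5.81 in the other 5 libraries, with sums of 86.3–287 in Ctrl and 60.3–76.2 with DMF. The B cell markers summed to 3861–4539 and 4211–4858, nearly all of it Ighm, while Cd79b was at 56.1–87.3 and Ms4a1 and Pax5 at 0 to 3.12. The NK cell markers summed to 13.5–21.3 and 32.5–74.5, from Gzma and Klre1, with Ncr1 and Klrb1c at 0 with DMF, and the sums of the gamma-delta T cell, erythroid and platelet markers were at most 32.2. The stromal markers summed to 296–765 in Ctrl and 152–253 with DMF through Pecam1, which T cells also make, with Col1a2 at most 1.86. Reads on the 13 genes of the Gm10800 family stood at 97.4–282 rpm (scaled by the reads on genes) in Ctrl and 2.42–58.2 with DMF, reads on the 1248 olfactory receptor genes 4.95–19.0 and 1.04–7.03, and the number of genes with at least 1 read was 16659–20342 and 16871–17679. Leaving the olfactory, vomeronasal and Gm10800 families out of the adjustment of p gave 785 called genes, all among those called with these families included. The fit was not repeated. Of these families only 4 genes were tested, all of the Gm10800 family and all called. The count therefore could not show whether reads on these families bear on other genes. The part of these measures in the results below was not tested.

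**Figure D1:**
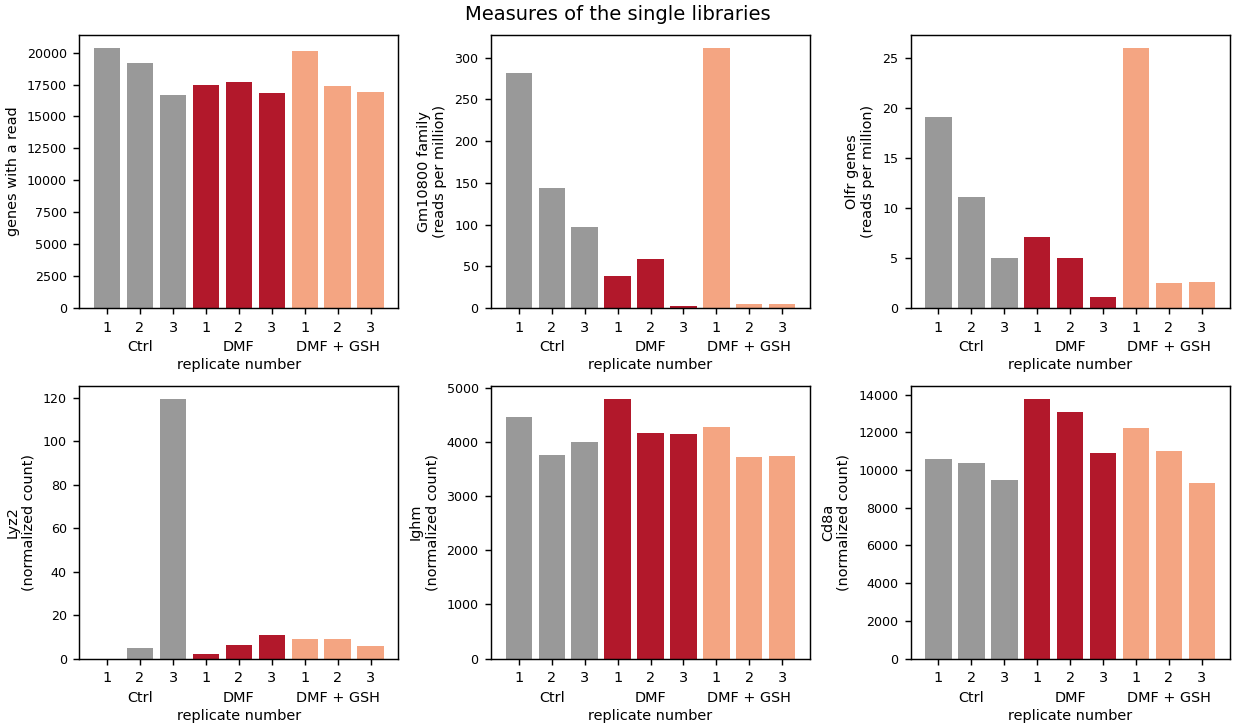
Measures of the 9 libraries, 3 per group, as bars from 0: the number of genes with a read, rpm on the Gm10800 family and on olfactory receptor genes (Olfr), and normalized counts of Lyz2, Ighm and Cd8a. Reads on both families were higher in each Ctrl library than in the DMF library of its number, Lyz2 stood out in Ctrl replicate 3, Ighm was of similar height in all libraries, and Cd8a was higher with DMF in each pair.

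With DMF, the genes called higher included 8 of 25 nucleolar genes, 7 of 37 ATF4 targets and both metallothioneins, and those called lower 10 of 20 genes of naive and memory T cells and 9 of 19 chemokine and homing receptors, of which another 2 were higher. A gene was called when its adjusted p (p adj, limma, Benjamini-Hochberg over all genes tested) was under 0.01 and its log2 fold change (log2FC) at least 0.75 in size. By this rule 789 of the 11599 genes (6.80%) were called, 293 higher (2.53%) and 496 lower (4.28%), and 766 of the 789 were in neither the type 17 nor the CTL list. At p adj under 0.01 alone there were 3848 genes (33.2%), 2036 higher and 1812 lower, so that most of these genes changed by less than the fold limit. Only 50 called genes moved by at least 2 on the log2 scale, 14 up and 36 down.

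Of the 789 genes, which were called in a fit on these pairs, 788 had the same sign in all 3 pairs, as had 66.3% of all genes tested, the exception being Mcoln2, an ion channel of the endolysosome, with log2 pair ratios of −1.38, 0.01 and −1.05, whose call was lost on leaving out any of Ctrl replicates 1 and 3 and DMF replicates 1 and 3 (log2FC −0.58 to −0.74). In 690 the DMF and Ctrl libraries did not overlap, as was the case for 41.3% of all genes tested. The median absolute log2 ratio of the called genes was 1.22 in pair 1, the only pair of batch 1, and 0.97 and 0.91 in pairs 2 and 3 of batch 2, and 523 of them had their largest ratio in pair 1. Across all genes tested, which are not independent replicates, the ratios of pairs 1 and 2, 1 and 3, and 2 and 3 correlated with Pearson's r of 0.738, 0.676 and 0.631. Within batch 2 alone 544 genes were called, 518 of them among the 789. The number of genes called higher fell to 192 without DMF replicate 1. Of the 1953 genes with a mean of 10 to 50, 82 were called higher and 161 lower, and of the 2915 with a mean of at least 1000, 45 and 62.

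**Figure D2:**
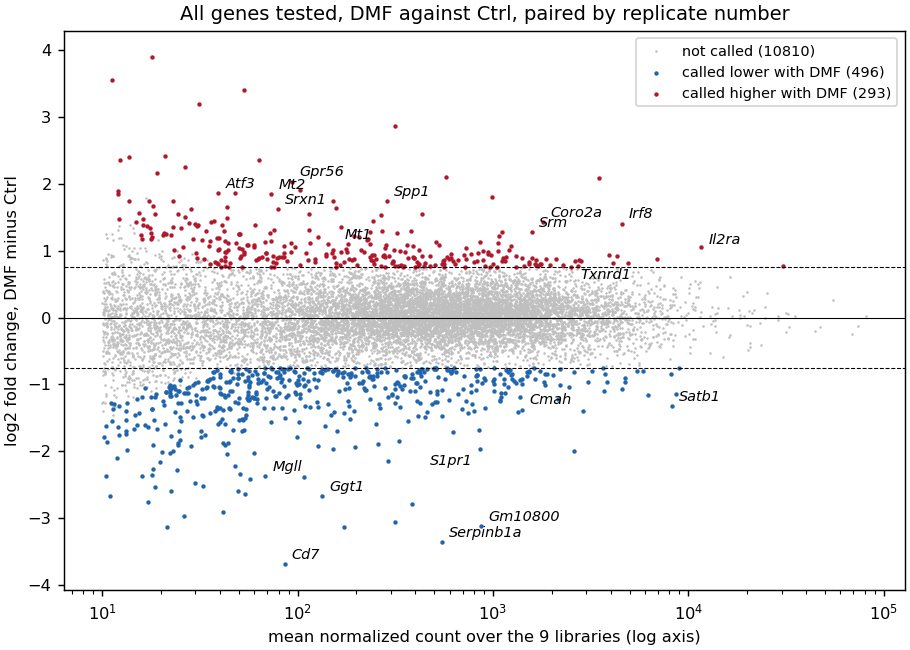
Log2 fold change (DMF minus Ctrl) of each of the 11599 genes tested against its mean normalized count (log axis), with the 293 genes called higher in red, the 496 called lower in blue and dashed lines at the fold limit of 0.75. Serpinb1a and Ggt1 lie among the falls and Gpr56, Mt2 and Atf3 among the rises, where other genes rose further. The centre of the cloud stays near 0, with a median of 0.01.

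**Figure D3:**
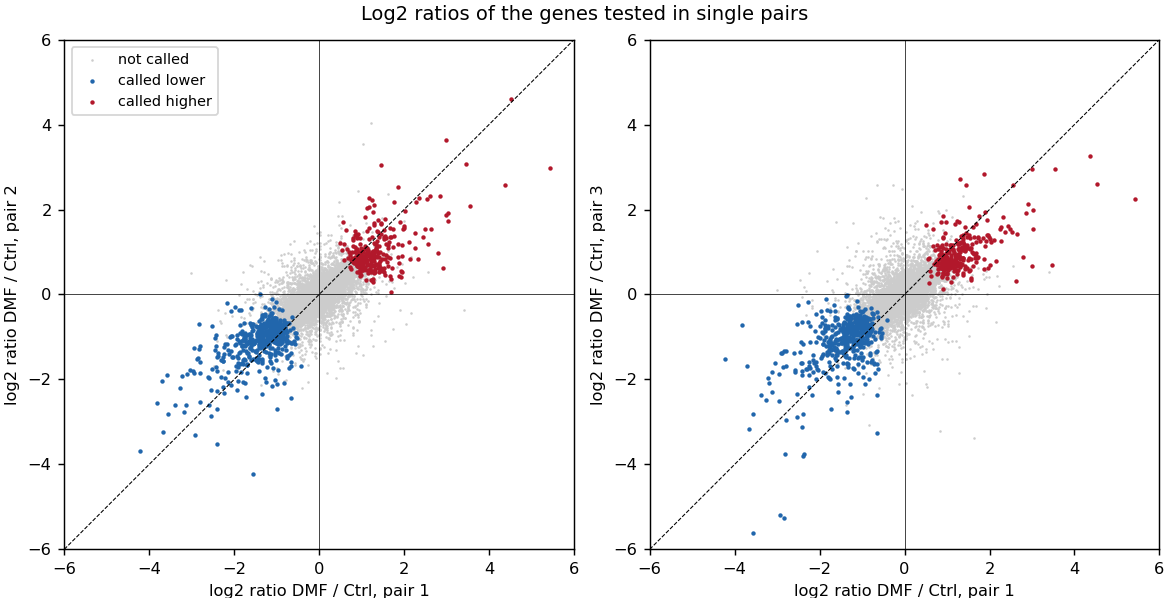
Log2 ratio of DMF to Ctrl in pair 1 (x axis) against pair 2 (left) and pair 3 (right), each point a gene tested, with called genes in colour and a dashed line of equal ratios. The called genes lie in the lower left and upper right corners, and 523 of the 789 have their largest ratio in pair 1.

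Of 26 NRF2 targets tested, 2 were called higher (2.53% of all genes were) and 0 lower, and 24 were not called. The share called was near the 6.80% of all genes. The median log2FC was 0.24 against 0.01 over all genes, and 20 of the 26 were above 0, against 50.6% of all genes. At p adj under 0.01 alone 11 were higher and 3 lower, against 17.6% and 15.6% of all genes. Srxn1, which encodes sulfiredoxin and restores oxidised peroxiredoxins, was at 44.7, 39.9 and 48.3 normalized counts in Ctrl replicates 1, 2 and 3 and at 179.9, 117 and 126 with DMF (log2FC 1.63, SE 0.17, p adj = 6.08e-07, limma). The lowest DMF library was thus above the highest Ctrl library. Txnrd1, encoding cytosolic thioredoxin reductase, went from 1816, 1717 and 2682 to 3823, 3049 and 4132 (log2FC 0.84, SE 0.068, p adj = 2.16e-08, limma). Here too the groups did not overlap, but without DMF replicate 1 the log2FC of Txnrd1 was 0.74, under the fold limit. Classical members of the group did not pass: Nqo1 had a mean of 9.72 ± 4.33 (SD, n = 3) in Ctrl and 14.6 ± 3.45 with DMF, Hmox1 of 69.1 ± 15.2 in Ctrl and 85.3 ± 10.2 with DMF, Gclm of 463 ± 48.4 in Ctrl and 511 ± 26.8 with DMF, and Gclc, the catalytic subunit for glutathione synthesis, of 704 ± 6.02 in Ctrl and 817 ± 53.2 with DMF (log2FC 0.21, SE 0.072, p adj = 0.0211, limma). These 4 were named after their values were seen.

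Across the glutathione and thioredoxin systems, 4 of 41 genes tested were called higher and 3 lower, against 2.53% and 4.28% of all genes. The median log2FC was 0.19, and at p adj under 0.01 alone 17 were higher and 7 lower, against 17.6% and 15.6% of all genes. Without DMF replicate 1 only 2 were called higher. Besides Srxn1 and Txnrd1 the risers were Gsto1, an omega-class glutathione transferase, at 140.3, 148 and 192 in Ctrl and 347, 281 and 321 with DMF (log2FC 0.99, SE 0.12, p adj = 2.65e-06, limma), and Txnrd3. For Txnrd3, which had at most 78.3 normalized counts, the call was lost without Ctrl replicate 1 (log2FC 0.80, p adj = 0.0208) or DMF replicate 1 (0.70, p adj = 0.0349). The falling members were Mgst2, a microsomal glutathione transferase (log2FC −1.09), Txnip, the inhibitor of thioredoxin and of glucose uptake (−0.92), and Gstt3 (−0.95), which was not called without any 1 of Ctrl replicates 1, 2 and 3 and DMF replicates 1 and 3 (log2FC −0.70 to −1.08). Nor was Gstt3 called with edgeR (−0.85, p adj = 0.0204), DESeq2 (−0.90, p adj = 0.0448) or limma voom (−0.88, p adj = 0.0177) on recovered reads. Ggt1, the cell surface enzyme that cleaves glutathione outside the cell, was not in this list and was named by the size of its fall, from 378, 239 and 85.3 to 42.3, 38.5 and 16.5 normalized counts (log2FC −2.68, SE 0.17, p adj = 1.26e-09, limma). It lies on chromosome 10 from 75561604 to 75586200 on the forward strand (GRCm38 and GENCODE vM21, as for all positions of genes here). Its Ctrl values differed by more than 4 times between replicates 1 and 3, yet every DMF library was below every Ctrl library.

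Both metallothioneins, small cysteine-rich proteins that bind zinc and copper, rose. Mt1 was at 129, 170.0 and 141 in Ctrl and 396, 380.1 and 424 with DMF (log2FC 1.45, SE 0.13, p adj = 9.6e-08, limma), and Mt2 at 33.3, 41.8 and 39.8 in Ctrl and 127, 138 and 155 with DMF (log2FC 1.84, SE 0.19, p adj = 3.83e-07, limma). They are neighbours, Mt1 on chromosome 8 from 94179082 to 94180327 on the forward strand and Mt2 from 94172664 to 94173568. The 3 log2 pair ratios of Mt2 were 1.90, 1.70 and 1.93. The other 16 tested genes of iron, heme and metal handling were not called, and the median of the list was 0.19. By comparison, 2.53% of all genes were called higher.

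Promoter sequence was searched for the motifs of these pathways in the 250 bases before each RefSeq start site (GRCm38.p6). TGACNNNGC, the core of the antioxidant response element, was present on either strand in 10.2% of the 32851 windows and in 14.2% of the 8499 tested genes with a window, 13.6% of the 214 called higher and 14.9% of the 356 called lower. TGCGCNC, 1 form of the metal response element, was in 12.5% of windows, in 25.6% of tested genes, in 22.0% of those called higher and in 20.2% of those called lower. Other forms of this element were not searched. Txnrd1 holds the first and Mt2 the second, whereas the windows of Srxn1 and Mt1 hold no match to the letters searched. The stretch of Txnrd1 (1 of its 3 windows, chr10:82859084-82859152, forward strand) and that of Mt2 (chr8:94172460-94172526, forward strand) are shown since these are called genes with a match, in capitals. A match says only that the letters are there.

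Txnrd1: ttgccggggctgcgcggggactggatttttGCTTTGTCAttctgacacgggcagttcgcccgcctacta

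Mt2: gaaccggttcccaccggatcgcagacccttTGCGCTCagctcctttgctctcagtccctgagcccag

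More genes of the integrated stress response were higher. Of 37 ATF4 targets and related genes tested, 7 were called higher and 1 lower, 35 were above 0, 27 were higher at p adj under 0.01, and the median log2FC was 0.56. Of all genes tested 50.6% were above 0, 17.6% were higher at p adj under 0.01 and 2.53% were called higher. On leaving out Ctrl replicate 3 the 7 calls became 12, and on leaving out DMF replicate 2 or 3 they became 4 or 15. Without the replicate block there were 2 calls with a batch term and 1 without. Atf3, a transcription factor induced by many stresses, was at 22.9, 13.9 and 19.9 in Ctrl and 132, 42.8 and 60.01 with DMF (log2FC 1.86, SE 0.28, p adj = 2.73e-05, limma). DMF replicate 1 lay well above the other DMF libraries, and the groups did not overlap. Slc7a5, a subunit of the main leucine transporter of T cells, was at 2546, 2390.2 and 4138 in Ctrl and 5694, 4911 and 6342 with DMF (log2FC 0.94, SE 0.077, p adj = 2.56e-08, limma). Sesn2, encoding the leucine sensor sestrin 2, was at 158, 163 and 216 in Ctrl and 414, 249.97 and 381 with DMF (log2FC 0.94, SE 0.13, p adj = 8.74e-06, limma), but had a log2FC of 0.73 without DMF replicate 1 and was then not called. Cth, which makes cysteine from cystathionine, had a log2FC of 1.38 and was not called without DMF replicate 2 (1.04, p adj = 0.0106). The glycine transporter Slc6a9 (1.29), the arginine and lysine transporter Slc7a3 (0.90) and asparagine synthetase Asns (0.82) completed the called risers. Asns was not called without Ctrl replicate 2 (0.64) or DMF replicate 2 (0.55), and Slc7a3 not without Ctrl replicate 1, Ctrl replicate 2 or DMF replicate 2 (0.57 to 0.87). Ddit4, an inhibitor of mTORC1, was the falling member (log2FC −0.93, from 1501, 2659 and 1931 to 668, 1613 and 1038). Atf4 itself was at 2851 ± 356 in Ctrl and 4106 ± 350.3 with DMF, with a log2FC of 0.53, and Ddit3 (CHOP), the mediator of death under prolonged stress, at 165 ± 48.04 in Ctrl and 149.5 ± 11.7 with DMF (p adj = 0.551, limma). These last 2 genes were named after their values were seen.

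TGATGNAA, a composite site of ATF4 and C/EBP factors, was in 3.45% of all windows, in 2.31% of tested genes and in 3.27% of those called higher. Asns (chr6:7693210-7693262, reverse strand) and Atf3 (chr1:191183406-191183473, reverse strand) hold it in the stretches shown, in capitals, and Sesn2 and Slc6a9 do not. Cth, Slc7a5 and Slc7a3 have no window in the table used.

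Asns: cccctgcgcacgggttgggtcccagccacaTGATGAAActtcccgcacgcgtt

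Atf3: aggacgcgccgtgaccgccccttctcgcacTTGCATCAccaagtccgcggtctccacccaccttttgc

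Of 15 heat shock genes 1 was called, the mitochondrial chaperonin Hspd1, at 2781, 2767 and 4250.4 in Ctrl and 5955, 5341 and 7097 with DMF (log2FC 0.93, SE 0.061, p adj = 2.2e-09, limma), and the list median was 0.48 with 14 genes above 0 and 11 higher at p adj under 0.01. Of 21 chaperones of the endoplasmic reticulum 0 were called, by limma or by edgeR, DESeq2 or limma voom on the recovered reads, with a median of 0.35, 18 above 0, 13 higher at p adj under 0.01 and 16 at an unadjusted p under 0.05. Among them Hspa5 (BiP) had a log2FC of 0.44 (SE 0.05). For comparison with both lists, 6.80% of all genes tested were called and 50.6% were above 0. Of all genes 17.6% were higher at p adj under 0.01, and 51.8% had an unadjusted p under 0.05. Of 21 p53 targets, Phlda3 (1.11), Perp (0.94) and Cdkn1a, encoding the cyclin-dependent kinase inhibitor p21 (0.90), were called higher and Btg2 (−0.76) and Sesn1 (−0.76) lower, around a median of 0.10. Of all genes 2.53% were called higher and 4.28% lower. Without DMF replicate 1, Cdkn1a (0.67), Btg2 (−0.57) and Sesn1 (−0.67) were no longer called, nor were Btg2 (−0.74) and Sesn1 (−0.73) without Ctrl replicate 1.

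Genes for building ribosomes were higher as a group. All 25 nucleolar genes tested were higher in each of the 3 pairs, and all 25 were higher at p adj under 0.01, against 17.6% of all genes. Of these 8 passed the fold limit (4 without DMF replicate 1), and log2FC ranged from 0.50 to 0.93 with a median of 0.69. Rrp9, a protein of the U3 particle that cuts ribosomal RNA, was at 691, 634 and 923 in Ctrl and 1358, 1248 and 1657 with DMF (log2FC 0.93, SE 0.071, p adj = 1.25e-08, limma). Nop2, a ribosomal RNA methyltransferase, was at 1244, 1389 and 1778 in Ctrl and 2724, 2304 and 3017 with DMF (log2FC 0.87, SE 0.068, p adj = 1.52e-08, limma). In both genes Ctrl replicate 3 was the highest Ctrl library and stayed below the lowest DMF library. Mybbp1a (0.87), Polr1b of RNA polymerase I (0.84), Nolc1 (0.82), Gnl3 (0.80), Ncl, encoding nucleolin (0.77), and Rrp12 (0.76) were the other called members. Without DMF replicate 1 the log2FC of Polr1b was 0.73, of Nolc1 0.74, of Ncl 0.71 and of Rrp12 0.68, all under the limit, and without Ctrl replicate 1 Ncl and Rrp12 both stood at 0.74. With all libraries numbered 1 left out, that of Nop2 was 0.7462.

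All 18 genes of purine and pyrimidine synthesis were higher in all 3 pairs, with a median log2FC of 0.51, and 0 were called with limma, edgeR, DESeq2 or limma voom. Without DMF replicate 2 or 3 the number called was 2 or 3, and 1 with quantile scaling. At p adj under 0.01 (limma) 14 were higher, and 17 had an unadjusted p under 0.05. Of all genes 34.3% were higher in all 3 pairs, 17.6% were higher at p adj under 0.01 and 51.8% had an unadjusted p under 0.05. Cad, the enzyme that starts pyrimidine synthesis, went from 4578 ± 862 (SD, n = 3) to 7306 ± 898 (log2FC 0.68, SE 0.064, p adj = 1.27e-07, limma). Several lists were drawn up after the values were seen and are given for their content alone. All 22 tested genes of mitochondrial protein import were above 0, with a median of 0.50, and Chchd4, which oxidises imported proteins (0.99), Timm10 (0.92), Tomm40, the pore of the outer membrane (0.84), and Timm8a1 (0.76) were called. Without DMF replicate 1 only 2 of these remained, since Tomm40 (0.72) and Timm8a1 (0.71) were lost, and Timm8a1 was also lost without Ctrl replicate 1 or 3 or DMF replicate 2 or 3 (0.66 to 0.80). Among all genes tested 50.6% were above 0 and 2.53% were called higher. Of 10 polyamine enzymes only Srm, spermidine synthase, was called. It was at 881, 912 and 1436 in Ctrl and 2609, 2075 and 3046 with DMF (log2FC 1.28, SE 0.086, p adj = 3.17e-09, limma), while Odc1, the first enzyme of the pathway, had a log2FC of 0.37.

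Myc, a transcription factor that drives growth genes, and its antagonists Mxd4 and Mxd1 moved in opposite directions. The network list they belong to was drawn up after the values were seen, and 8 of its 15 tested members were not called. Myc was at 1977, 2178 and 2363 in Ctrl and 4514, 3297 and 4147 with DMF (log2FC 0.87, SE 0.079, p adj = 9.04e-08, limma). Without DMF replicate 1 its log2FC was 0.73, under the fold limit. Mxd4, which competes with MYC for its partner MAX, fell from 962, 1112 and 525 to 247, 347 and 187 (log2FC −1.71, SE 0.087, p adj = 1.16e-10, limma), and Mxd1 from 749, 942 and 734 to 434, 512 and 425 (log2FC −0.82, SE 0.072, p adj = 6.31e-08, limma). In all 3 genes the groups did not overlap. The related antagonists Mxd3 (−0.44), Mnt (−0.07) and Mxi1 (−0.07) were not called. Of the 15 tested members of this network and of the CDK inhibitors, Cdkn1b, encoding p27 (−0.87), Cdkn2d, encoding p19 (−0.92, and −0.74 without the libraries numbered 1), and Ccng2, a cyclin of resting cells (−1.24), were also lower, and Cdkn1a and Myc were the 2 called higher. Among all genes tested 2.53% were called higher and 4.28% lower. Sesn3, a sestrin of quiescent cells, was among the 10 smallest p outside the type 17 and CTL lists and was nearly the same in every pair. It went from 2962, 3418 and 2559.6 to 1456, 1682 and 1234 (log2FC −1.03, SE 0.054, p adj = 1.54e-10, limma), with log2 pair ratios of −1.02, −1.02 and −1.05. Klhl24, a kelch-like protein of the same group of 10, went from 1060.1, 1301 and 748 to 371, 517 and 293 (p adj = 2.21e-10, limma).

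CACGTG, the E-box that MYC and MXD proteins bind, was in 6.02% of all windows and in 10.3% of tested genes. It was found in 13.6% of the 214 called higher and in 6.46% of the 356 called lower, a difference that was not tested. Of the called nucleolar genes Nop2 (chr6:125131793-125131858, forward strand) holds it, in capitals, and Rrp9, Mybbp1a, Nolc1, Gnl3, Ncl and Polr1b do not. Rrp12 has no window in the table.

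Nop2: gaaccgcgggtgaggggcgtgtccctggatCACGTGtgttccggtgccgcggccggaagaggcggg

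No listed gene of DNA synthesis or of cell division passed the fold limit. Of 31 DNA replication genes 0 were called with limma, edgeR, DESeq2 or limma voom, with a median log2FC of 0.12 and 14 at an unadjusted p under 0.05 (51.8% of all genes), and Mcm6, a subunit of the replicative helicase, was at 8480.4 ± 895 in Ctrl and 9149.5 ± 122 with DMF (p adj = 0.102, limma). At p adj under 0.01 (limma) 9 of the 31 were higher and 0 lower, against 17.6% and 15.6% of all genes. In this list 23 were above 0 and 19 were higher in all 3 pairs, against 50.6% and 34.3% of all genes. Of 26 genes of mitosis 0 were called by these tools, yet 25 were below 0, 24 of them in all 3 pairs, with a median of −0.28. Of these genes 17 had a p adj under 0.01 (limma) and 22 an unadjusted p under 0.05. Of all 11599 genes, 3706 were lower in all 3 pairs and 15.6% were lower at p adj under 0.01. Top2a, the topoisomerase that untangles chromosomes, was at 23341, 24405 and 21844 in Ctrl and 18238, 17575 and 15640.2 with DMF (log2FC −0.44, SE 0.053, p adj = 2.37e-06, limma).

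**Figure D4:**
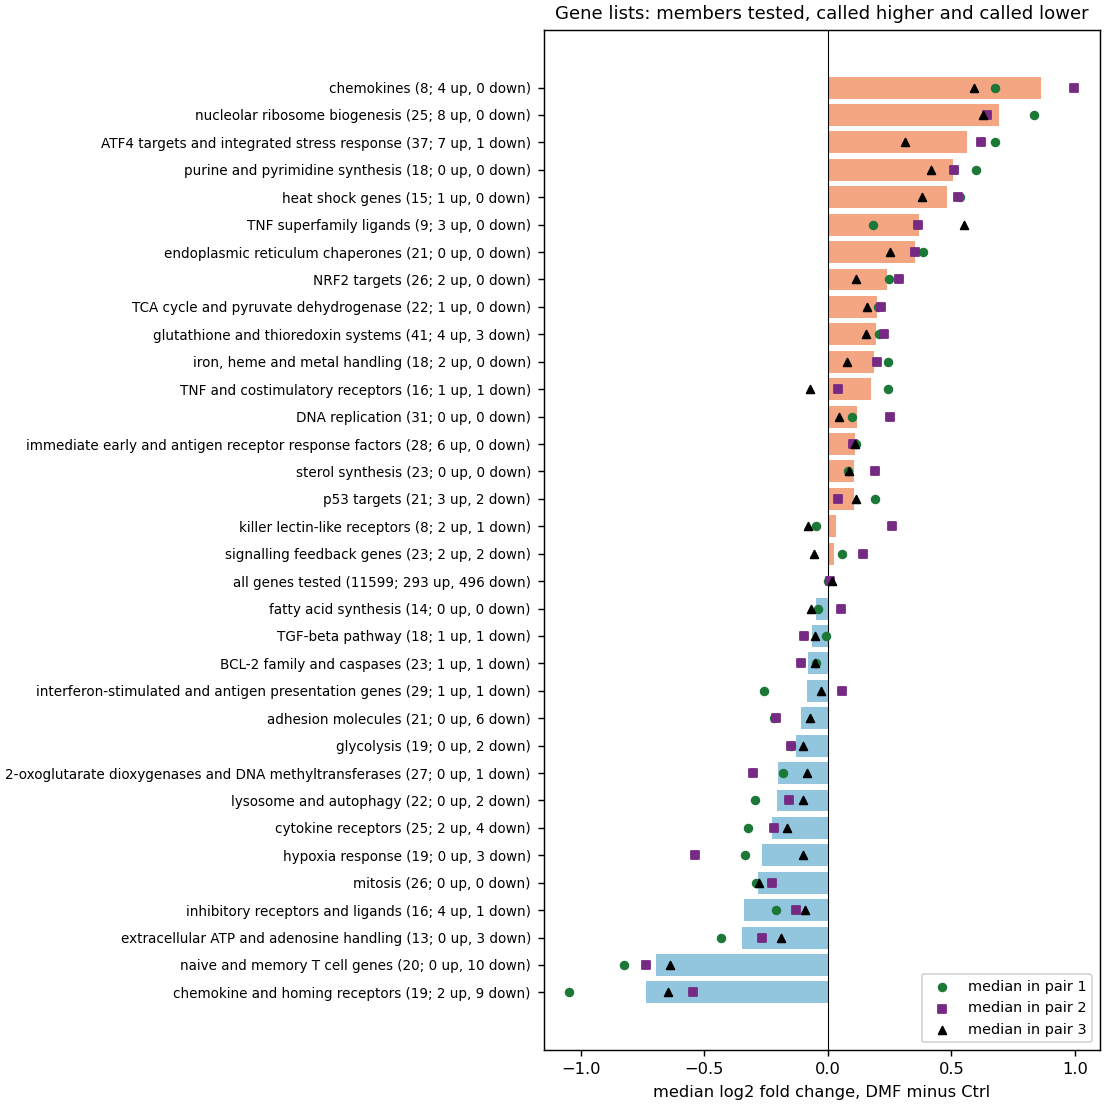
Median log2 fold change (DMF minus Ctrl) of 33 gene lists and of all genes tested, as bars, with the median of each single pair as points. Each label gives the number of genes tested and how many were called higher (up) and lower (down). The list of nucleolar genes and that of naive and memory T cell genes keep their sign in every pair and lie far from the median of all genes.

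Of 19 glycolysis genes, Aldoc, an aldolase (−1.56, from 147, 239.7 and 55.5 to 40.2, 66.8 and 27.1), and Slc16a3, the lactate exporter MCT4 (−0.86), were called lower, with a list median of −0.13, against 4.28% of all genes lower. Slc16a3 was not called without DMF replicate 1 (−0.70). Ldha (0.16) and the glucose transporter Slc2a1 (−0.12), named after their values were seen, were not called. Of 19 hypoxia genes 3 were called lower (4.28% of all genes were), Ankrd37 (log2FC −1.05), P4ha2 (−1.04) and Ddit4, with a median of −0.27. At p adj under 0.01 alone 9 were lower (15.6% of all genes were) and 0 higher. The call of P4ha2, a collagen prolyl hydroxylase at no more than 67.8 normalized counts, was lost on leaving out Ctrl replicate 1, Ctrl replicate 2, DMF replicate 1 or DMF replicate 2, with log2FC of −1.03, −0.71, −1.02 and −0.85. It was also the single called member of the 27 2-oxoglutarate dioxygenases and DNA methyltransferases, whose median was −0.20. By comparison, 6.80% of all genes were called.

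Of the 22 genes of the TCA cycle and pyruvate dehydrogenase, 20 were above 0 (50.6% of all genes were) with a median of 0.20. Only Pcx, pyruvate carboxylase, was called, at 282, 212 and 359.8 in Ctrl and 737, 417 and 656 with DMF (log2FC 1.07, SE 0.13, p adj = 1.6e-06, limma). Fh1, the fumarase that consumes fumarate, was at 888, 925 and 929 in Ctrl and 1185, 1139 and 1055 with DMF, and its log2FC of 0.30 had a p adj of 0.00142 (limma) without reaching the fold limit. It was named after its values were seen. The lists of sterol synthesis (23 genes, median 0.11) and fatty acid synthesis (14 genes, median −0.05) held 0 called genes with limma, edgeR, DESeq2 or limma voom. An unadjusted p under 0.05 (limma) was found for 11 of the 23 and 11 of the 14, against 51.8% of all genes. At p adj under 0.01 (limma) 7 sterol genes were higher and 1 lower, against 17.6% and 15.6% of all genes. Among fatty acid genes 4 were higher and 3 lower at that limit. Above 0 were 18 of the 23 and 7 of the 14. The best expressed members, Srebf2 (−0.11) and Scd2 (−0.13), had p adj of 0.0953 and 0.144 (limma). Of 22 lysosome and autophagy genes, Wipi1, which marks the forming autophagosome (−1.38), was among the 2 called lower, around a median of −0.21. For comparison with the TCA cycle and lysosome lists, 2.53% of all genes were called higher and 4.28% lower.

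Genes of naive and memory T cells fell together. Of 20 tested, 10 were called lower and 0 higher, against 4.28% of all genes lower, 18 were below 0 in all 3 pairs with p adj under 0.01, and the median log2FC was −0.70. Without the replicate block the 10 calls became 4 with a batch term and 3 without. S1pr1, the receptor for sphingosine 1-phosphate that lets T cells leave lymph nodes, fell from 1864, 1213 and 555 to 399.9, 311 and 166 (log2FC −1.97, SE 0.080, p adj = 8.35e-12, limma). In both groups replicate 3 was the lowest, and the highest DMF value stayed below the lowest Ctrl value. S1pr1 lies on chromosome 3 from 115710433 to 115715072 on the reverse strand.

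The transcription factors of the naive state fell with them. Satb1, a chromatin organiser, was at 10795, 12733 and 8843 in Ctrl and 3579, 5966 and 3589.7 with DMF (log2FC −1.33, SE 0.075, p adj = 4.26e-10, limma), and Tcf7, encoding TCF-1, at 12643, 13085 and 7046 in Ctrl and 4875, 6027 and 3702 with DMF (log2FC −1.14, SE 0.067, p adj = 6.46e-10, limma). Igfbp4, an insulin-like growth factor binding protein of naive T cells, was at 10639, 7441 and 6608 in Ctrl and 4806, 3125 and 3103 with DMF (log2FC −1.16, SE 0.066, p adj = 4.26e-10, limma). No DMF library reached the Ctrl range in these 3 genes. Klf3 (−1.08), Il7r, the receptor chain for the survival cytokine IL-7 (−1.05), Slamf6 (−0.98), Klf2, which drives S1pr1 (−0.81), and Lef1 (−0.76) were also called. Lef1 missed the fold limit without DMF replicate 1 (−0.67) or DMF replicate 2 (−0.7494), as did Ccr7 with all libraries (log2FC −0.54, p adj = 6.68e-07, limma). TGTTTAC, the FOXO motif, was in 3.17% of windows, 2.54% of tested genes and 3.65% of those called lower, and in none of the windows of Satb1, Igfbp4, Tcf7, Klf3, Il7r, Slamf6, Klf2 and Lef1.

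**Figure D5:**
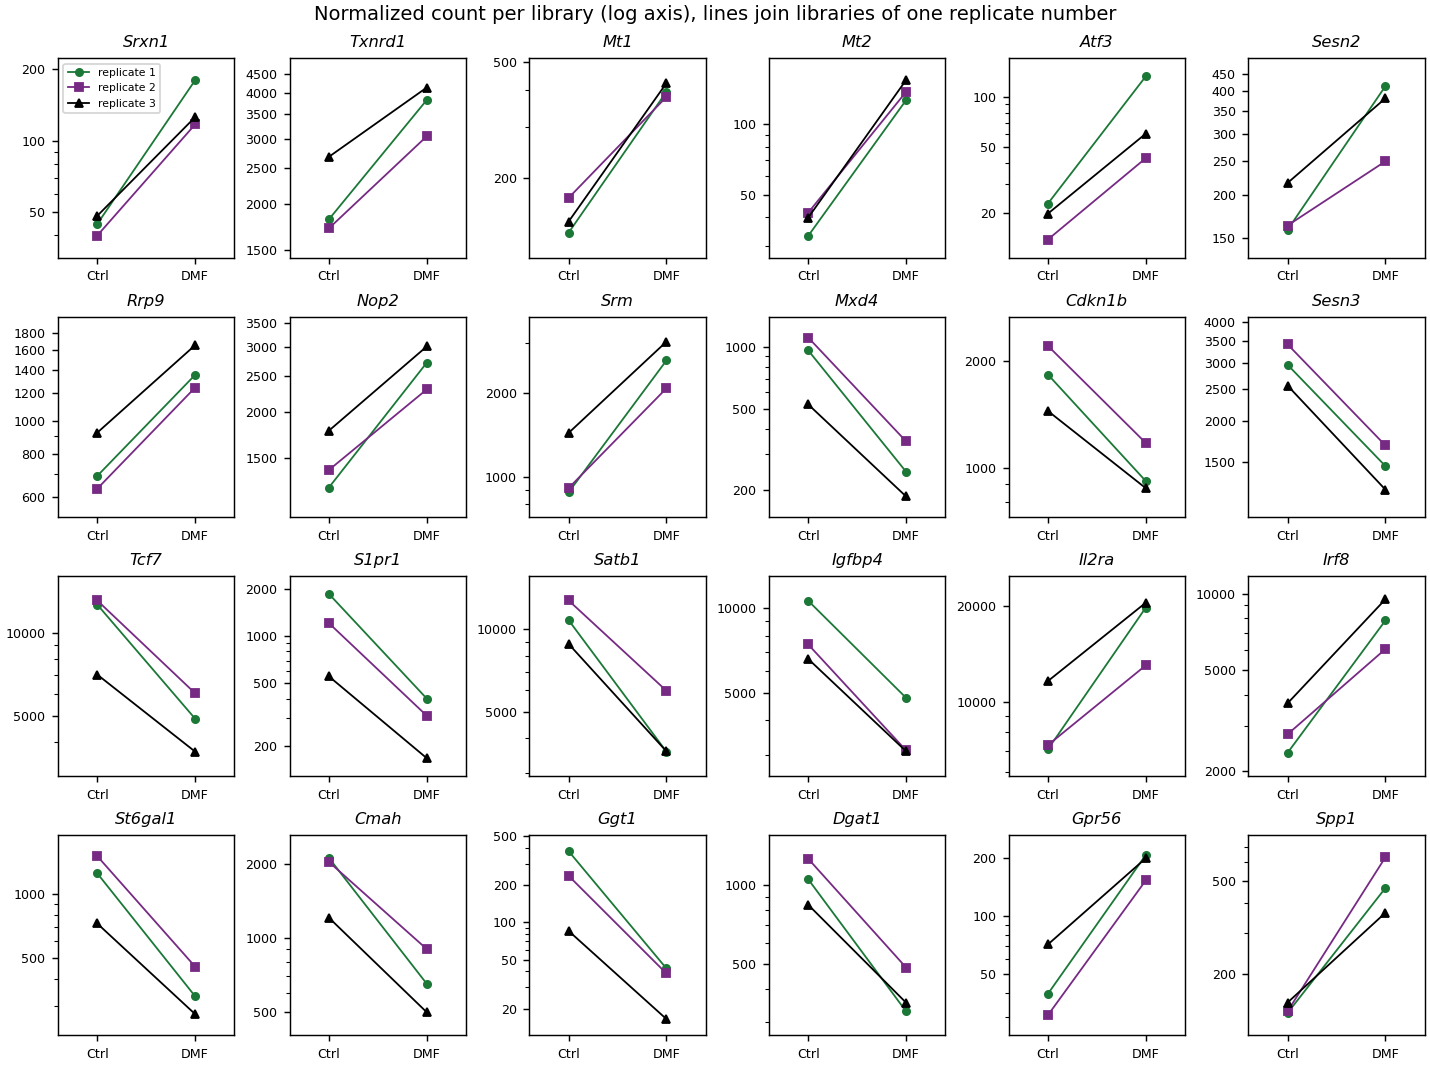
Normalized counts (log axis) of 24 genes in each Ctrl and DMF library, with lines joining the libraries of 1 replicate number. Every line of a gene runs in the same direction, and replicate 3 starts lowest in Ctrl for S1pr1, Tcf7, Mxd4 and Cmah.

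Receptors that guide T cells to tissues changed in both directions. Of 19 chemokine and homing receptors, 9 were called lower and 2 higher, against 4.28% and 2.53% of all genes. The median was −0.74, and S1pr1 belongs to this list too. Without the replicate block 5 were called lower with a batch term and 3 without. Ltb4r1, the leukotriene B4 receptor, fell from 37.4, 36.2 and 49.8 to 10.6, 5.99 and 6.77 (log2FC −2.28, SE 0.31, p adj = 7.74e-06, limma), and Cxcr4, the receptor for CXCL12, from 233, 90.1 and 69.7 to 95.2, 22.3 and 15.5 (log2FC −1.78, SE 0.18, p adj = 3.49e-07, limma). The Cxcr4 groups overlapped, as DMF replicate 1 was above Ctrl replicates 2 and 3, while each pair fell. Cxcr6 (−1.11), Gpr183, a receptor for oxysterols (−1.33), and Ccr2 (−1.37) fell as well. Ccr2, however, was not called without Ctrl replicate 2, Ctrl replicate 3 or DMF replicate 3 (log2FC −1.32 to −1.13). In contrast, Ccr4 was at 279.6, 270.3 and 377 in Ctrl and 645, 395 and 917 with DMF (log2FC 1.01, SE 0.11, p adj = 7.21e-07, limma), and Ccr8 had a log2FC of 1.02. Of 21 adhesion molecules 6 were called lower and 0 higher, against 4.28% and 2.53% of all genes, around a median of −0.11. At p adj under 0.01 alone 10 were lower and 5 higher. The 6 included Itgb3 (−1.56), Itga3 (−1.24), L1cam (−1.02), and both chains of the integrin α4β7 that directs T cells to the gut. Itga4 was at 816, 1138 and 757 in Ctrl and 397, 544 and 355 with DMF (log2FC −1.06, SE 0.078, p adj = 7.82e-09, limma), and Itgb7 at 6931, 5944 and 4829 in Ctrl and 2899.9, 3476 and 2644 with DMF (log2FC −0.97, SE 0.073, p adj = 1.05e-08, limma), with no overlap in either.

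Enzymes that place or alter sialic acid on surface glycans are described from a list drawn up after the values were seen, of which 19 were tested. St6gal1, which adds α2,6-linked sialic acid to N-glycans and was named by the size of its fall, went from 1251, 1507 and 728 to 332, 457 and 274 (log2FC −1.68, SE 0.083, p adj = 1e-10, limma). Cmah, which turns N-acetyl- into N-glycolylneuraminic acid, went from 2114, 2036 and 1209 to 652, 901 and 499 (log2FC −1.38, SE 0.084, p adj = 9.18e-10, limma). St8sia1, the ganglioside GD3 synthase (−1.09), and St3gal1, which caps O-glycans (−1.06), were also lower. St6galnac4, which acts on O-glycans, was the only one called higher, at 777, 798 and 1113 in Ctrl and 1892, 1614 and 2136 with DMF (log2FC 1.08, SE 0.075, p adj = 4.45e-09, limma). In these 5 genes Ctrl and DMF libraries did not overlap, and the other 14 tested were not called. Thus 4 of the 19 were called lower and 1 higher, against 4.28% and 2.53% of all genes. The list as a whole did not fall, as 11 of the 19 were above 0 and the median log2FC was 0.09.

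Among cytokine receptors, Il2ra, the high-affinity chain of the IL-2 receptor, was at 7067, 7288 and 11612 in Ctrl and 19821, 13025 and 20545 with DMF (log2FC 1.05, SE 0.094, p adj = 7.14e-08, limma). Il1rl1, the receptor for IL-33, was at 4.16, 13.9 and 12.8 in Ctrl and 41.3, 48.8 and 54.2 with DMF (log2FC 2.26, SE 0.32, p adj = 1.42e-05, limma). The receptors called lower were Il1r1 (−2.79), Il23r (−1.46), Il7r, and Ifngr1, the IFN-γ binding chain (−0.84). Thus 2 of 25 were called higher and 4 lower, against 2.53% and 4.28% of all genes, around a median of −0.23. At p adj under 0.01 alone 5 were higher and 11 lower. Ifngr1 was not called without DMF replicate 1 (−0.68), nor Il23r without the libraries numbered 3 (−1.22, p adj = 0.0138). Of 8 chemokines tested 4 were called, all higher: Ccl1 (3.19), Ccl3, an inflammatory chemokine, at 227, 823 and 714 in Ctrl and 1229, 2096 and 2194 with DMF (log2FC 1.80, SE 0.14, p adj = 1.39e-08, limma), its neighbour Ccl4 (1.22), and Xcl1 (0.85), the ligand of a receptor on cross-presenting dendritic cells. Of all genes tested, 2.53% were called higher. Ctrl replicate 1 was the lowest library for Ccl3 and Ccl4. At p adj under 0.01 alone, 4 of 9 TNF superfamily ligands were higher and 2 lower. With the fold limit 3 were called higher and 0 lower, against 2.53% and 4.28% of all genes. The 3 were lymphotoxin alpha Lta, at 220.3, 249.9 and 307 in Ctrl and 1307, 569 and 1842 with DMF (log2FC 2.11, SE 0.17, p adj = 2.98e-08, limma), Tnfsf4, encoding OX40 ligand (0.92), and Tnfsf11, encoding RANKL (0.90), which was not called without Ctrl replicate 1 (0.68) or DMF replicate 1 (0.70).

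Of the 16 TNF and costimulatory receptors, Tnfrsf25, the death receptor 3 that binds TL1A, fell from 279, 367 and 247 to 51.8, 104 and 80.3 (log2FC −1.94, SE 0.14, p adj = 5.05e-09, limma). Tnfrsf21 had a log2FC of 1.03, and its call was lost without Ctrl replicate 1 (0.74, p adj = 0.0176) or DMF replicate 1 (0.92, p adj = 0.0122). Thus 1 of the 16 was called higher and 1 lower, against 2.53% and 4.28% of all genes. Of 16 inhibitory receptors and ligands 4 were called higher and 1 lower, against 2.53% and 4.28% of all genes, while the median was −0.34. At p adj under 0.01 alone 4 were higher and 6 lower. Cd200, a ligand that restrains myeloid cells, was at 128, 178 and 172 in Ctrl and 494, 337 and 578 with DMF (log2FC 1.53, SE 0.14, p adj = 1.06e-07, limma), Tigit at 307, 412 and 344 in Ctrl and 818, 758 and 748 with DMF (log2FC 1.14, SE 0.091, p adj = 2.16e-08, limma), and Pdcd1lg2, encoding PD-L2, had a log2FC of 1.07. Havcr2 (TIM-3) had a log2FC of 3.91 at no more than 69.8 normalized counts, with 0 reads in Ctrl replicate 2, and its log2FC ranged from 2.85 to 4.67 over the alternatives. Ctla4, the brake on CD28 signals, went the other way, from 7680.3, 6486 and 5547 to 3575, 3936 and 3744 (log2FC −0.80, SE 0.080, p adj = 2.49e-07, limma), and was not called without Ctrl replicate 1 (−0.70) or DMF replicate 1 (−0.66).

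Some transcription factors induced by the antigen receptor were higher with DMF. Of 28 tested, 6 were called higher and 0 lower, against 2.53% and 4.28% of all genes, with a list median of 0.11. Irf8 was at 2357, 2789.6 and 3696 in Ctrl and 7848, 6054 and 9518 with DMF (log2FC 1.41, SE 0.081, p adj = 4.68e-10, limma), Nr4a3, a nuclear receptor of early activation, at 827, 1014 and 809 in Ctrl and 2037, 1448 and 1868 with DMF (log2FC 1.01, SE 0.11, p adj = 5.77e-07, limma), and Batf3 at 6.24, 14.9 and 14.2 in Ctrl and 148, 93.3 and 145 with DMF (log2FC 3.40, SE 0.32, p adj = 1.09e-07, limma). The groups did not overlap in these 3 genes, and Batf3 was at most 14.9 in Ctrl. Atf3, Myc and Fosl1 (0.82, not called without Ctrl replicate 1, 0.59, p adj = 0.019) were the others. Myc was not called without DMF replicate 1 (0.73). Of 23 feedback regulators, Dusp5, a phosphatase for ERK, was at 254, 168 and 219 in Ctrl and 606, 431 and 506 with DMF (log2FC 1.27, SE 0.089, p adj = 4.73e-09, limma), and Rgs16, which dampens chemokine receptor signals, had a log2FC of 0.81, or 0.7472 and no call without Ctrl replicate 1. Socs3, the inhibitor of IL-6 signals, fell from 1109, 1435 and 784 to 634, 616 and 415 (log2FC −0.98, SE 0.076, p adj = 1.5e-08, limma). Cblb, a ubiquitin ligase that limits activation, had a log2FC of −0.78 and was not called without DMF replicate 1 (−0.66) or Ctrl replicate 3 (−0.7481). Thus 2 of the 23 were called higher and 2 lower, against 2.53% and 4.28% of all genes, with a list median of 0.02.

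Of the 18 genes of the TGF-β pathway, Tgfb3 was called lower (−1.34) and Lrrc32, encoding GARP, which holds latent TGF-β on regulatory T cells, called higher (0.98), around a median of −0.06. Lrrc32 was not called without DMF replicate 1 (0.68). From 17 genes associated with regulatory T cells, a list drawn up after the values were seen, 6 were called higher and 1, Ctla4, lower. Foxp3, their lineage factor, was at 796, 559 and 913 in Ctrl and 2456, 1035 and 2325 with DMF (log2FC 1.29, SE 0.12, p adj = 1.06e-07, limma), Folr4, a folate receptor family member, had a log2FC of 0.95, and Ikzf2, encoding HELIOS, one of 0.22 (p adj = 0.401, limma). The Foxp3 groups did not overlap. Of 29 interferon-stimulated and antigen presentation genes, Iigp1, a GTPase induced by IFN-γ, was at 197, 227 and 321 in Ctrl and 578, 779 and 804 with DMF (log2FC 1.55, SE 0.10, p adj = 1.7e-09, limma), while Gbp2, another such GTPase, fell from 4770.3, 5131 and 3777 to 1801, 3314 and 1587 (log2FC −1.10, SE 0.10, p adj = 1.37e-07, limma). The 27 other genes of the list were not called, and its median was −0.08. Of 23 BCL-2 family and caspase genes, Bmf was called lower (−0.94) and Bid called higher (0.80), both death-promoting members, with a median of −0.08. Bid was not called without Ctrl replicate 1 (0.72) or DMF replicate 1 (0.70). For comparison with each list of this paragraph, 2.53% of all genes were called higher and 4.28% lower.

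In the list for extracellular ATP, NAD and adenosine, 3 of 13 genes were called lower and 0 higher, against 4.28% and 2.53% of all genes. The list median was −0.35. Dpp4 (CD26), a surface dipeptidyl peptidase kept in this list although it does not act on nucleotides, was at 1769, 1700.0 and 1289.8 in Ctrl and 758, 931 and 720.1 with DMF (log2FC −0.98, SE 0.084, p adj = 4.5e-08, limma). Art2b, the ADP-ribosyltransferase that uses extracellular NAD, had a log2FC of −1.38. P2rx7, the ATP-gated channel, had one of −1.67 at no more than 36.2 normalized counts, and its call was lost without Ctrl replicate 2 (−1.46) or Ctrl replicate 3 (−1.44). Of 8 killer lectin-like receptors, Klrk1, encoding the activating receptor NKG2D, was at 184, 234 and 196 in Ctrl and 395, 407 and 375 with DMF (log2FC 0.94, SE 0.14, p adj = 2.94e-05, limma), with a log2FC of 0.7460 and no call without Ctrl replicate 1. Klre1 (1.57) was the other riser, not called without DMF replicate 1 (p adj = 0.012), and Klrb1f fell by 3.14 on the log2 scale. Thus 2 of the 8 were called higher and 1 lower, against 2.53% and 4.28% of all genes.

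Outside the type 17 and CTL lists, the largest rises among genes with a mean of at least 100 included Gpr56, an adhesion receptor known from cytotoxic lymphocytes. It was at 39.5, 30.7 and 71.1 in Ctrl and 206, 152 and 198 with DMF (log2FC 2.03, SE 0.18, p adj = 7.35e-08, limma). Spp1, encoding the cytokine osteopontin, was at 136, 138 and 151 in Ctrl and 466, 630.1 and 365 with DMF (log2FC 1.74, SE 0.14, p adj = 2.48e-08, limma), and Coro2a, an actin-binding coronin, at 1083, 940.1 and 1406 in Ctrl and 3481, 2408 and 3324 with DMF (log2FC 1.43, SE 0.073, p adj = 1.16e-10, limma). None of these overlapped between groups. Epcam, a cell adhesion molecule best known from epithelia, had a log2FC of 1.74, Tead1, a partner of the coactivator YAP, one of 1.91 with overlapping groups, and Gpr83, a receptor found on regulatory T cells, one of 1.65. Pfn2 (1.55), an actin-binding profilin, Fam71b (1.35), Fam46a, a poly(A) polymerase (1.30), Ppp2r3a, a subunit of protein phosphatase 2A (1.29), and Rpph1, the RNA of ribonuclease P, which lacks a poly(A) tail (1.32), followed.

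The largest falls among genes with a mean of at least 100, outside the same lists, were those of Serpinb1a (−3.36), Nav2 (−3.06) and the predicted genes Gm10801 and Gm10800. Gm10800 was at 2373, 1207 and 813 in Ctrl and 332, 496 and 20.3 with DMF, but also at 2547, 30.4 and 33.1 with DMF + GSH, and its call was lost without Ctrl replicate 2 (−3.08, p adj = 0.0191), Ctrl replicate 3 (−2.26), DMF replicate 1 (−2.43) or DMF replicate 3 (−2.39), as was that of Gm10801. Members of this family share near-identical sequence, and no source used here says how reads that fit several genes were counted. Podnl1, a leucine-rich extracellular protein, fell from 243, 299 and 142 to 39.1, 77.04 and 54.2 (log2FC −1.97, SE 0.17, p adj = 5.89e-08, limma), Pde5a, which breaks down cyclic GMP, from 209.9, 229 and 127 to 38.1, 69.3 and 40.6 (log2FC −1.92, SE 0.16, p adj = 2.53e-08, limma), and Tspan2, a tetraspanin, from 279, 415 and 347 to 51.8, 149 and 98.7 (log2FC −1.89, SE 0.15, p adj = 1.39e-08, limma). In these 3 genes the DMF libraries lay below all Ctrl libraries. Tcp11l2 (−1.84) and Mturn (−1.70) were of similar size. Cd7, a surface protein of T cells chosen after its values were seen, had the largest fall of all genes tested (−3.70), from 224, 159 and 48.3 to 17.99, 41.9 and 0, with log2 pair ratios that ranged from −5.62 to −1.90 and 0 reads in DMF replicate 3.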

How the data were processed

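RNA-Seq was performed on bulk RNA of the 9 murine Tc17 libraries, 3 for each of Ctrl, DMF and DMF + GSH. Single reads were aligned by the authors with STAR 2.4.0b to GRCm38 and counted per gene with featureCounts. The deposited signal of each gene is a normalized read count, that is, the reads divided by the size factor of the library from DESeq2. Options for strand and for reads that fit several genes are not given in the sources used here, so antisense or overlapping genes and near-identical copies are uncertain. The deposited table also holds fold changes and p-values of the authors' own comparisons, which were not used. Each value was a whole multiple of 1 step per library (100% of values, tolerance 0.01), and the recovered reads served as input for alternatives. Libraries held 7671772 to 14511926 reads on genes, and Ctrl replicate 3 was the shallowest.

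Genes with a mean of at least 10 over the 9 libraries were tested on log2(normalized count + 1) with limma 3.58.1 (R 4.3.3, moderated with an intensity trend), all 9 libraries entering 1 fit blocked by replicate number. Fold changes are on this scale, which understates the change of low genes. The replicate number contains the batch. The comparison was defined as paired by replicate number, and the pairing was then checked. Residuals of same-numbered libraries correlated with r of 0.447 to 0.578 in all 9 pairs of libraries and those of different numbers with at most −0.0621. Residuals were taken from group means, so that the negative values follow from the positive ones and add nothing to the check. Called genes had a p adj under 0.01 and an absolute log2FC of at least 0.75. The study's own model, fitted with DESeq2, held the batch and not the replicate number. A limma fit with a batch term and no replicate block is among the 26 alternatives. The DESeq2 fit with the batch was not run. A simulation of the DMF and Ctrl comparison held 11599 genes, 200 of them changed. There 85% of genes changed by 1 and 93% of those changed by 1.5 on the log2 scale were called, with 1 other gene. Far fewer genes changed in it than in the real data, where 3848 (33.2%) had a p adj under 0.01 (limma). These rates therefore describe the simulated data, and whether they hold for the real data was not tested.

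Genes were named by rule as the 15 largest rises and falls with a mean of at least 100, the 10 smallest p outside the type 17 and CTL lists, and up to 4 called members of each list (where 0 were called, its best expressed member). Further members and genes were named after their values were seen. Some list members that enter the counts are not reported here by name. Members and lists were chosen with earlier results of these data known. Positions came from GENCODE vM21, which held 40254 of the 41388 identifiers, and promoter windows from RefSeq (GRCm38.p6). Python 3.11.15, pandas 2.3.3, edgeR 4.0.16 and DESeq2 1.42.0 were also used.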

Additional observations from a re-analysis of the deposited data

How the results depend on the processing

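The number of genes called depended most on the replicate block. Without the block, 335 genes (141 higher, 194 lower) were called with a batch term and 267 (119 higher, 148 lower) without one, all of them among the 789. Leaving out 1 library or 1 replicate number gave 544 to 865 genes, 192 to 340 higher and 347 to 525 lower. The other alternatives kept the number within 1.5 times. They were pseudocounts of 0.5 (794) and 4 (760), no minimum mean (821), a minimum mean of 50 (545 of 9646), TMM (793) and quantile scaling (759, of which 42.8% higher), the 6 libraries alone (760), robust moderation (787), edgeR (795), DESeq2 (689) and limma voom (794) on recovered reads. The last, added after seeing the data, was removal of the olfactory, vomeronasal and Gm10800 families (785), by a new adjustment of p without a new fit. All 789 genes kept their sign wherever they were tested. Of 169 named genes called, 66 kept the call wherever they were tested (59 of them under all 26 alternatives), 55 lost it only in the 2 fits without the block, and 0 reversed. Of the alternatives for the list medians, 46 of 1066 moved by more than the spread. The medians of 5 lists near 0 changed sign: fatty acid synthesis (−0.12 to 0.00), signalling feedback (−0.01 to 0.08), interferon-stimulated genes (−0.17 to 0.00), killer lectin-like receptors (−0.08 to 0.17) and sialic acid enzymes (−0.12 to 0.14). Cd7 lost its call under robust moderation. The cause was not tested. Depth was lowest in Ctrl replicate 3, which limits genes near the minimum, and 3 libraries per group leave 4 residual degrees of freedom per gene before moderation.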

Other observations

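Genes that store, release or take up neutral lipids changed in both directions. The list was drawn up after the values were seen, and 4 of 18 were called higher and 5 lower, against 2.53% and 4.28% of all genes. The 2 enzymes that complete triglyceride synthesis went opposite ways. Dgat1 was at 1049.7, 1257 and 839 normalized counts in Ctrl replicates 1, 2 and 3 and at 329, 484 and 355 with DMF (log2FC −1.43, SE 0.077, p adj = 2.56e-10, limma), while Dgat2 was at 47.8, 25.1 and 68.3 in Ctrl and 106, 106 and 107 with DMF (log2FC 1.27, SE 0.23, p adj = 0.00015, limma), and neither overlapped between groups. Mgll, which hydrolyses monoacylglycerol, was at 103, 129 and 88.2 in Ctrl and 16.9, 26.5 and 16.5 with DMF (log2FC −2.38, SE 0.18, p adj = 1.05e-08, limma), and Plin2, a coat protein of lipid droplets, at 184, 275 and 223 in Ctrl and 65.6, 143 and 88.1 with DMF (log2FC −1.25, SE 0.14, p adj = 7.94e-07, limma). The fatty acid scavenger Cd36 was at 4.16, 1.86 and 34.1 in Ctrl and 56.1, 23.1 and 56.1 with DMF, with overlapping groups and no call without DMF replicate 1 (log2FC 2.03, p adj = 0.0109), when only 1 member of the list was called higher.

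Several genes were picked after their values were seen. Igha, the constant region of immunoglobulin A, was at 318, 194 and 280.1 in Ctrl and 808, 410.0 and 505 with DMF (log2FC 1.09, SE 0.11, p adj = 2.49e-07, limma), whereas Ighm, of immunoglobulin M, was at 4068 ± 353 in Ctrl and 4368 ± 369.7 with DMF (SD, n = 3, log2FC 0.10), with Cd79b at 56.1–87.3 and Ms4a1 and Pax5 at 0 to 3.12 in these 6 libraries. Bcl6, a transcriptional repressor of follicular helper and memory precursor T cells, was at 258, 431 and 284 in Ctrl and 76.2, 207 and 70.7 with DMF (log2FC −1.60, SE 0.15, p adj = 9.32e-08, limma). Pik3ip1, an inhibitor of PI3 kinase, was at 765, 634 and 346 in Ctrl and 216, 271 and 128 with DMF (log2FC −1.49, SE 0.098, p adj = 2.24e-09, limma). Bcat1, which transaminates branched-chain amino acids, was at 801, 714 and 1193 in Ctrl and 1576, 1514 and 1893 with DMF (log2FC 0.91, SE 0.077, p adj = 3.81e-08, limma), and Shmt1, the cytosolic enzyme that takes a carbon unit from serine, at 815, 826 and 963 in Ctrl and 1639.8, 1413 and 1779 with DMF (log2FC 0.89, SE 0.070, p adj = 1.82e-08, limma). Ctrl and DMF libraries did not overlap in Igha, Bcl6, Pik3ip1, Bcat1 and Shmt1.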
